A study of Mus musculus with 8 samples.

Results

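The 39 genes described here are interferon-stimulated genes of the mouse, which cells switch on after type I interferon binds its receptor. They were chosen by name, and their CpGs were taken from 5 kb before to 5 kb after each gene in the RefSeq coordinates of GRCm38 (mm10). Both strands of a CpG were added, and a CpG was kept where at least 3 mice of each group had 10 or more reads. Of the 3644 CpGs listed for any mouse in these regions, 898 were kept, out of 1278034 kept on all autosomes, and 36 of the 39 genes had at least 1. Ifit1, Mx1 and Ifi27 had none.

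Methylation levels came from enhanced reduced representation bisulfite sequencing, which reads CpG-rich restriction fragments. The cells were hematopoietic stem cells from C57BL/6 bone marrow, sorted as negative for lineage markers, Flk2 and CD48 and positive for c-Kit, Sca-1 and CD150. The knockout group was 4 mice with loxP-flanked Atg12, a gene needed to form autophagosomes, and Mx1-Cre. The control group was 4 mice that the design text gives as Atg12 flox/flox without Cre, while their genotype label reads WT. All 8 mice received poly(I:C) at 4 weeks of age, so the controls carry that exposure too, and each library came from 1 mouse whose cells were taken 2 to 3 months later. Mx1-Cre is driven by the promoter of an interferon-stimulated gene and also acts in other interferon-responsive tissues. No group without poly(I:C) was analysed here, so an effect of the injection itself cannot be told apart from the state of untreated cells.

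Poly(I:C) is a synthetic double-stranded RNA that imitates viral RNA. Sensors such as Tlr3, Ifih1 (MDA5) and Ddx58 (RIG-I) bind such RNA and lead to interferon secretion, and interferon acts through factors such as Stat2 and Irf9, which bind interferon-stimulated response elements in promoters. The induced proteins degrade or edit viral RNA, block its translation or hold virus particles at the membrane, and in stem cells interferon is known to drive a transient exit from quiescence. Methylation of CpGs at a gene start is commonly low where the start is active or poised.

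The libraries listed between 2038266 and 3366162 cytosines each, with median coverages of 212 to 293 reads over kept CpGs. Coverage of always methylated CpGs relative to always unmethylated ones ranged from 0.260 in control 34 and 0.340 in knockout 25 to 0.737 in control 1. Cytosines on chromosome Y made up 7.90 to 9.01 per 10000 listed cytosines in the knockouts and 1.16 to 1.83 in the controls, so genotype and sex cannot be told apart in any comparison below. Of 7 stem cell marker genes, 5 could be measured at their starts (Kit, Procr, Hlf, Mecom and Meis1) and were at most 0.294% methylated in either group. Methylation does not measure the surface markers of the sort.

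Promoter sequences show where the CpGs of these genes could be read. RefSeq promoter sequences (GRCm38.p6, 250 bases before to 50 after the start) were at hand for 29 of the 39 genes, all but Oas1b, Oas2, Mx1, Mx2, Usp18, Dhx58, Ifi27, Rtp4, Parp14 and Zbp1. They held a median of 6 CpGs (range 1 to 22), against 14 (range 0 to 65) over 16457 promoters, and 10 of the 29 had a kept CpG. The 4 below, each written 5′ to 3′ along the gene, show the range from many read CpGs to none. They lie at chr17:78882523-78882822, chr5:120812465-120812764, chr8:71537423-71537722 and chr4:156200769-156201068, in the order printed and all on the minus strand, with each kept CpG in capitals.
Eif2ak2: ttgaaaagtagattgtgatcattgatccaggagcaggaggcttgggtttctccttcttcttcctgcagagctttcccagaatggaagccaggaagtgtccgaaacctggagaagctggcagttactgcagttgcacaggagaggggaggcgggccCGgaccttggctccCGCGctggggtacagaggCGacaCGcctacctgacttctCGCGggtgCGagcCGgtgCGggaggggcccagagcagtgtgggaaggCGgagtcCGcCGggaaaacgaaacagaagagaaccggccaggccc
Oas1c: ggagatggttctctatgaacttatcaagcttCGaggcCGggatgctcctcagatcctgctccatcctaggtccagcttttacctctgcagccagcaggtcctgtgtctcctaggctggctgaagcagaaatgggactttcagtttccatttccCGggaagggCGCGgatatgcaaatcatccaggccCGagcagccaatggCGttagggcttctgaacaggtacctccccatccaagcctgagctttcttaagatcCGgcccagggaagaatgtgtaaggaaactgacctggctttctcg
Bst2: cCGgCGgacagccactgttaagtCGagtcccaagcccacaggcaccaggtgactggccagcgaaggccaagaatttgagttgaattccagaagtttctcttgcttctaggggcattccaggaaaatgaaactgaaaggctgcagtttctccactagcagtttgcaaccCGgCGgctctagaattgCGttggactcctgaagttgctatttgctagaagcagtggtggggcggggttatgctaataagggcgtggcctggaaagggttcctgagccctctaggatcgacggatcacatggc
Isg15: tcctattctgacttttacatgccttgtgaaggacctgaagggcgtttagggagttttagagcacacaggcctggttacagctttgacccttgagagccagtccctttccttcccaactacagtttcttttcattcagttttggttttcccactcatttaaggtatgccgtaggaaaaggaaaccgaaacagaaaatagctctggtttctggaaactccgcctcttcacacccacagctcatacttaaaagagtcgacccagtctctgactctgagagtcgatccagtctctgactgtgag
Eif2ak2 encodes PKR, a kinase that stops translation on double-stranded RNA, and 13 of its 17 promoter CpGs were kept. For Oas1c, of the oligoadenylate synthetase family, 8 of 9 were kept. For Bst2, which encodes the virus-tethering protein tetherin, 6 of 11 were kept. For Isg15, a ubiquitin-like protein, none of 6 was listed for any mouse.

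Around the starts, 21 of the 39 genes (53.8%) had a kept CpG within 1 kb, against 14522 of 20668 genes (70.3%). For 29 genes the start was that of the promoter table, and for 10 without an entry it was the gene end with more listed CpGs within 1 kb. At a tie, as for Rtp4, the lower end was taken. Over the kept CpGs of the 39 genes, 55.57% were under 5% methylated, 21.83% between 5 and 95% and 22.61% over 95%, against 56.23%, 24.49% and 19.28% of all CpGs. The kept CpGs were thus mostly at one end of the scale, as they were over the genome. Of the 499 kept CpGs under 5%, 162 lay in the flanks of Isg15 alone. The median SD between mice of CpGs between 5 and 95% and covered in all 8 mice was 11.45 percentage points for the 149 CpGs of these genes and 11.42 for all 239778.

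**Figure D1:**
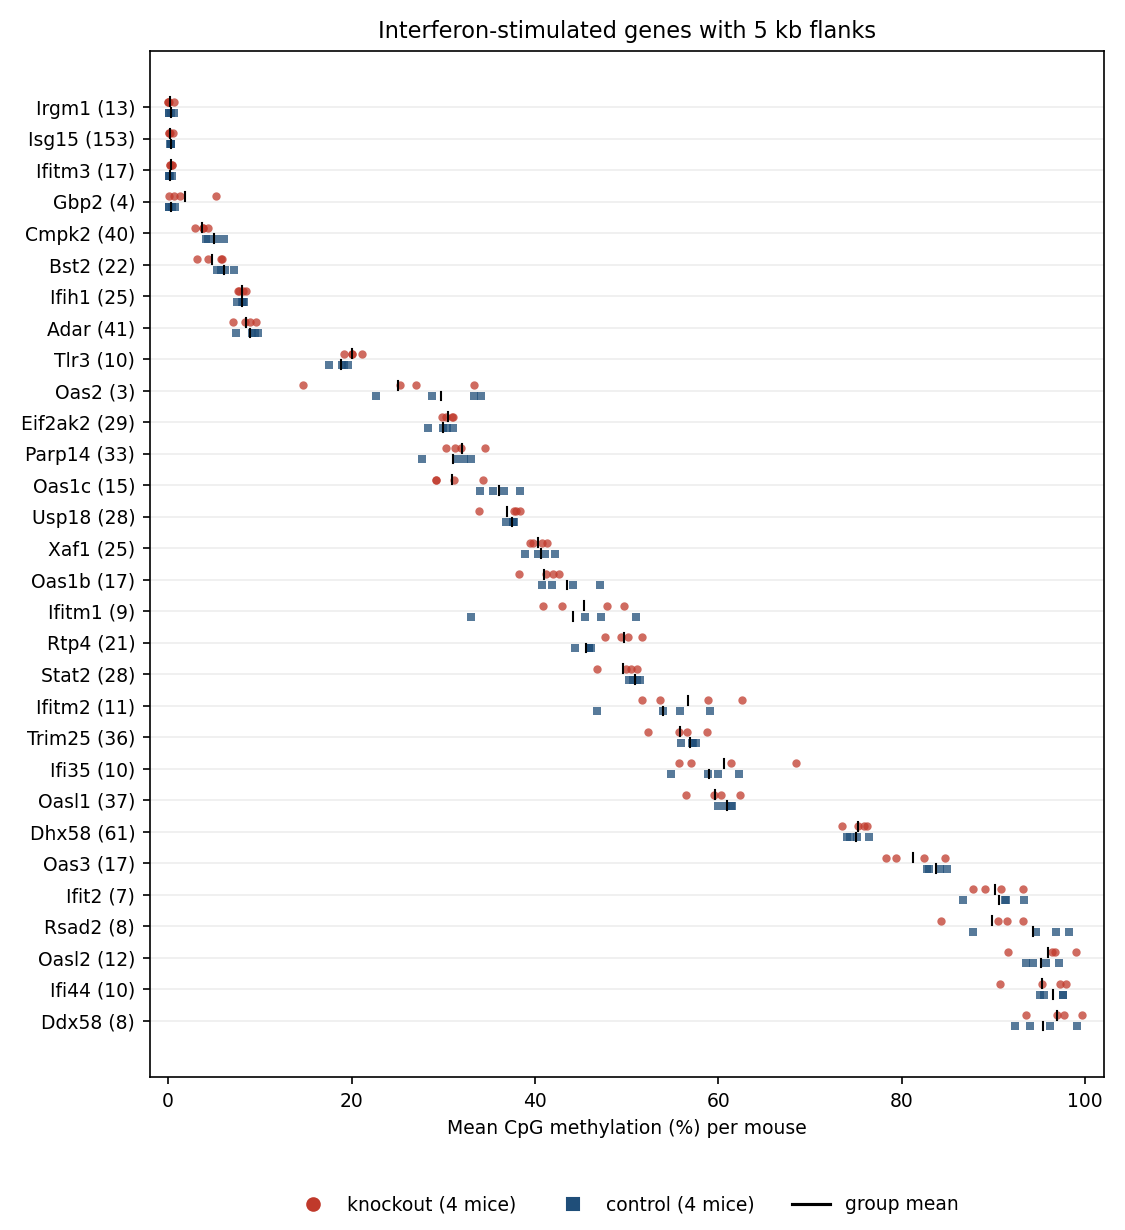
Mean CpG methylation per mouse (%, horizontal axis) over each gene with its 5 kb flanks, for the 30 genes with at least 3 CpGs covered in all 8 mice (number of CpGs in brackets). Circles are knockout mice, squares are control mice and vertical ticks are group means; levels run from near 0 for Irgm1, Isg15 and Ifitm3 to over 95% for Ifi44 and Ddx58, and the mice of both groups lie close together within most genes.

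Averaged over CpGs, the levels of the genes with their flanks covered nearly the whole scale. Irgm1, a GTPase of cell-autonomous immunity, was at 0.176% ± 0.308 in knockouts and 0.268% ± 0.229 in controls (SD, n = 4 each, as for all values below), over 13 CpGs. Isg15 was at 0.225% ± 0.225 and 0.279% ± 0.0356 over 153 CpGs, but none of its 163 kept CpGs lay in the gene, and 109 lay within 1 kb of the start of its neighbour Agrn. Ifitm3, which restricts virus entry at endosomes, was at 0.304% ± 0.0917 and 0.221% ± 0.182, with all 17 CpGs in the flanks. At the other end Ddx58 was at 96.9% ± 2.53 and 95.4% ± 2.96, with all 8 CpGs in 1 window inside the gene. Ifi44, whose 10 CpGs lay in the flanks, was at 95.3% ± 3.22 and 96.4% ± 1.33.

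By the unweighted mean of CpG levels, the group means differed by less than 3 percentage points in 26 of the 30 genes with at least 3 CpGs in all 8 mice. The other 4 were Oas1c, Oas2, Rsad2 and Rtp4. This count depends on the measure. By reads summed over the same CpGs, the difference was -24.6 points for Tlr3, -7.65 for Oasl1, -7.56 for Oas3 and 3.92 for Dhx58. By reads, 16 of 21 tested genes were lower in knockouts. Oas2 was at 25.1% ± 7.75 in knockouts and 29.7% ± 5.27 in controls, and Rsad2 at 89.8% ± 3.91 and 94.3% ± 4.64. Of the other RNA sensors, Ifih1 was at 8.01% ± 0.384 in knockouts and 8.03% ± 0.332 in controls, and Dhx58 (LGP2) at 75.2% ± 1.22 and 74.99% ± 1.05. For Dhx58, 45 of the 63 kept CpGs lay in the flanks, and 12 lay within 1 kb of the start of its neighbour Zfp385c. Stat2, the signal transducer specific to interferon, was at 49.6% ± 1.95 and 50.9% ± 0.5003. Of the synthetases that make the RNase L activator 2-5A, Oas3 was at 81.2% ± 2.90 and 83.7% ± 1.01. Oas1c was at 31.0% ± 2.42 and 36.1% ± 1.81, and its groups overlapped by a single knockout at 34.4%. Of its 18 kept CpGs, 17 lay in the flanks. By reads summed over the same CpGs as that mean, Oas1c was at 8.35% ± 2.51 and 8.42% ± 2.32. Of the translation inhibitors, Ifit2 was at 90.2% ± 2.35 and 90.6% ± 2.78 and Eif2ak2 at 30.6% ± 0.561 and 29.97% ± 1.15. In the flanks lay 5 of the 7 kept CpGs of Ifit2 and 15 of the 31 of Eif2ak2. Adar, the enzyme that edits adenosine to inosine in double-stranded RNA, was at 8.49% ± 1.04 and 8.95% ± 1.07. Rtp4, an interferon-induced transporter-like protein, was the gene with the clearest gap by this measure: 47.6, 50.1, 49.4 and 51.7% in knockouts 25, 28, 45 and 46, and 45.9, 46.1, 45.9 and 44.4% in controls 1, 34, 36 and 37. These groups did not overlap, and no test was planned for this CpG mean. By reads summed over the same 21 CpGs, Rtp4 was lower in knockouts, at 46.8% ± 8.75 against 52.2% ± 8.66. By that measure the groups overlapped, with an adjusted p of 0.9998 from the limma-moderated model. The 21 CpGs include the 5 of the Rtp4 start described below, whose unweighted mean differed by 13.98 points. By the same measure the window at 23518001 to 23519000 differed by 1.22 points and that at 23527001 to 23528000 by 2.21. The window at 23609001 to 23610000 differed by -0.0236. The gap was thus largest at the 5 CpGs, whose assignment to Rtp4 is in doubt.

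At their starts, 11 of the 17 genes with at least 3 CpGs in all 8 mice within 1 kb were under 5% methylated (64.71%), against 85.63% of 13428 gene starts, and the median level was 0.547% against 0.284%. The 3 lowest were Usp18, Eif2ak2 and Tlr3. Usp18, a protease that removes Isg15 from proteins and dampens receptor signalling, had 0.0868, 0.180, 0.0393 and 0.0551% methylated reads in knockouts 25, 28, 45 and 46, and 0.0608, 0.114, 0.279 and 0.0206% in controls 1, 34, 36 and 37. Eif2ak2 had 0.138, 0.0819, 0.0368 and 0.288% in knockouts and 0.0429, 0.0861, 0.0825 and 0.186% in controls. Tlr3, the endosomal sensor, had 0, 1.39, 0.129 and 0% in knockouts and 0.201, 0, 0 and 0% in controls. Its reads were the fewest of the low starts (291 to 1127 a mouse), where 0 methylated reads allow a level of up to 1.03%. In these 3 genes the ranges of the groups overlapped.

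The other low starts were those of Cmpk2, Oas1b, Oas1c, Irgm1, Ifih1, Stat2, Adar and Bst2. Their means over the 8 mice ran from 0.219% (Cmpk2, 38 CpGs) to 3.28% (Bst2, 22 CpGs). Oas1b and Oas1c adjoin and were measured over the same 9 CpGs, and the CpGs at the Stat2 start also lie within 1 kb of the start of Apof. Within the 300-base promoters, 8 had CpGs covered in all 8 mice. The highest mean over the CpGs of a promoter in any mouse was 2.353%, in Ifih1 in control 37. Single CpGs could be higher, as 1 of Ifih1 6 bases after the start was at 9.41% in control 37. The 13 promoter CpGs of Eif2ak2 printed above averaged between 0.0297 and 0.307% in every mouse. The promoters of the sensors, synthetases and effectors that could be read were thus almost free of methylation in both groups.

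**Figure D2:**
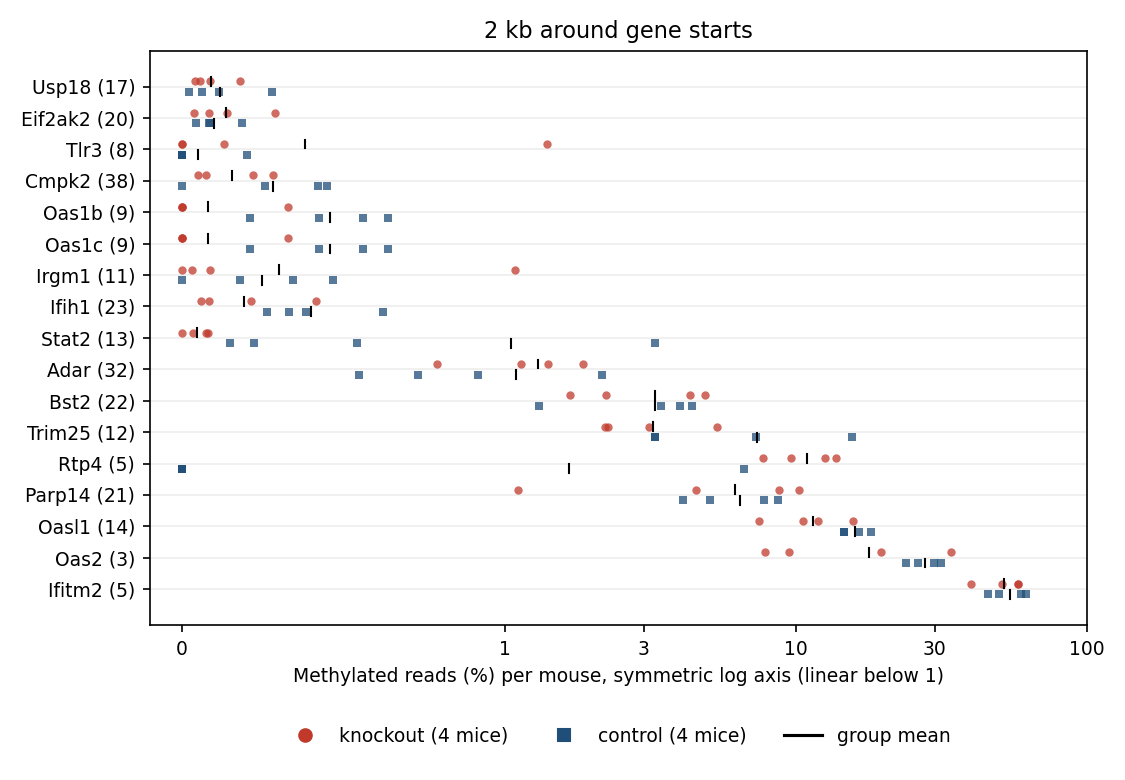
Methylated reads (%, horizontal axis on a symmetric log scale that is linear below 1) per mouse over the 2 kb around the start of 17 genes, with the number of CpGs in brackets. Circles are knockout mice, squares control mice and ticks group means. Under 5% lie 11 starts, and the knockouts lie above all controls for Rtp4 only among the 6 starts that were tested. The start of Rtp4 is a gene end taken at a tie, and its CpGs also lie inside Masp1.

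Knockouts were tested against controls, which also differ in sex, on features with a mean level between 5 and 95%. The test was a moderated quasi-binomial model of methylated reads fitted over all features of a kind. No feature of these genes passed an adjusted p of 0.05 (Benjamini-Hochberg). For single CpGs, 0 of 196 were called and 0.00735% of all 313039 tested CpGs were. For 1 kb windows 0 of 29 were called, with 0% called among all 39903. For gene starts 0 of 6 were called, with 0% among 1680, and for genes with flanks 0 of 21, with 0% among 11041. The smallest adjusted p of these genes was 0.739 for CpGs, 0.723 for windows, 0.752 for starts and 0.9998 for genes with flanks, from the limma-moderated model.

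Counts at an unadjusted p under 0.05 were near those of all features for single CpGs. They were 12 of 196 CpGs (6.12%), against 6.52% of all CpGs, with 7 lower in knockouts (3.57%, against 4.12%) and 5 higher (2.55%, against 2.4%). They were 4 of 29 windows (13.8%), against 6.5%, with 2 lower (6.9%, against 4.4%) and 2 higher (6.9%, against 2.1%). No start of the 6 reached it, against 6.55% of all (4.46% lower and 2.08% higher). Of the genes with flanks 1 of 21 reached it, against 2.53%, and it was lower in knockouts, as were 2.32% of all, while 0.208% of all were higher. With edgeR's quasi-likelihood test these counts were 7 CpGs (3.57%, against 2.64% of all), 3 windows (10.3%, against 3.79%), 1 start (16.7%, against 4.82%) and 1 gene (4.76%, against 1.93%). With limma on log2 ratios they were 11 CpGs (5.61%, against 5.02%), 2 windows (6.9%, against 4.82%), 1 start (16.7%, against 5.12%) and 1 gene (4.76%, against 2.6%). Both tools called none of these features after adjustment. The mean was lower in knockouts for 114 of 196 CpGs (58.2%, against 53.7% of all) for 14 of 29 windows (48.3%, against 52.7%) and for 5 of 6 starts (83.3%, against 51.8%). The median difference between knockouts and controls was -2.31 percentage points over the 196 CpGs and -0.902 over all tested CpGs, and 0.353 over the 29 windows and -0.264 over all. It was -3.29 over the 6 starts and -0.117 over all, and -3.49 over the 21 genes with flanks and -1.29 over all.

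The 6 tested starts were those of Oasl1, Rtp4, Oas2, Trim25, Ifitm2 and Parp14. Intervals below are 95% intervals of the difference between knockouts and controls from inverting an exact permutation test over the 70 arrangements of mice, not adjusted for the number of features. Knockouts are always given in the order 25, 28, 45 and 46 and controls in the order 1, 34, 36 and 37.

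Oasl1, a synthetase-like protein that limits translation of Irf7, had 15.7, 11.9, 10.6 and 7.45% methylated reads in knockouts and 16.5, 14.6, 18.2 and 14.6% in controls, over 14 CpGs. All but 1 knockout lay below all controls. The difference was -4.58 percentage points (interval -10.7 to 1.10) with an adjusted p of 0.752 from the limma-moderated model. By the unweighted mean of CpG levels, a measure added after seeing the data, it was -7.39. Of the methylated CpGs, 3 lay 319 to 335 bases after the start (chromosome 5, 114923559 to 114923575), and 1 at position -751 was at 55.97% ± 25.8 in knockouts and 64.57% ± 16.1 in controls. At the 3 after the start the mean of 3 CpGs was 47.0, 40.8, 20.8 and 17.4% in knockouts and 49.3, 75.7, 54.5 and 41.1% in controls. A CpG 195 bases after the start was at 6.67% ± 1.85 in knockouts and 15.9% ± 6.20 in controls, and its groups did not overlap. That CpG, singled out after its values were seen, had an adjusted p of 0.771 from the same model.

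Oas2 had 19.7, 34.2, 9.44 and 7.84% in knockouts and 29.7, 26.2, 31.6 and 23.9% in controls, over only 3 CpGs. The knockouts spread from below to above all controls. The difference was -10.1 percentage points (interval -23.7 to 10.3), with an adjusted p of 0.838 from the limma-moderated model. A single CpG at position 120749680 carried the level, at 75.2% ± 23.2 and 85.1% ± 13.1, while the other 2 were at 0% in every knockout. The start difference was -15.5 without knockout 28 and -4.66 by the unweighted mean of CpG levels. The same 3 CpGs make up the window through which Oas2 was named.

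Trim25, the ubiquitin ligase that activates RIG-I, had 2.26, 2.21, 3.11 and 5.35% in knockouts and 3.27, 3.27, 7.31 and 15.6% in controls, over 12 CpGs. The difference was -4.13 percentage points (interval -13.4 to 2.08, adjusted p = 0.873 from the limma-moderated model), and it was -1.38 without control 37 and -1.88 by the unweighted mean of CpG levels. The methylated CpGs were 3 at positions -471 to -452 relative to the start.

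Ifitm2, which restricts virus entry, had the highest start level of these genes: 58.1, 58.2, 39.9 and 51.1% in knockouts and 59.4, 50, 62.0 and 45.7% in controls, over 5 CpGs between positions -621 and -516 relative to the start. The groups overlapped throughout, with a difference of -2.44 percentage points (interval -22.1 to 12.5). Its paralog Ifitm3 lay on the same chromosome with every kept CpG under 5%, and Ifitm1 had 9 kept CpGs, all between 5 and 95%. For both paralogs all kept CpGs lay in the flanks and none within 1 kb of the start, so their starts were not measured. Parp14, an ADP-ribosyltransferase, had 10.3, 8.74, 1.11 and 4.53% in knockouts and 7.78, 4.07, 8.70 and 5.08% in controls, over 21 CpGs. Its difference was -0.250 percentage points (interval -7.59 to 6.19), and its sign changed when 1 of several single mice was left out. For Oasl1, Oas2, Trim25 and Ifitm2 the intervals include 0 and differences of over 10 points.

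Rtp4 was the exception in direction, at a gene end taken as its start whose CpGs also lie in Masp1. It had 7.71, 12.6, 9.59 and 13.7% in knockouts and 0, 6.62, 0 and 0% in controls. All knockouts lay above all controls, and this was 1 of 6 tested starts, or 16.7%, against 3.87% of all 1680 in either direction and 1.79% in this one. The difference was 9.24 percentage points (interval 1.09 to 13.7), with an adjusted p of 0.761 for the start and 0.739 for the window from the limma-moderated model. By the unweighted mean of CpG levels it was 13.98. These reads were few, 170 to 467 a mouse, where 0 methylated reads allow up to 1.76%. Within the 5 CpGs the methylated reads fell on different CpGs in different knockouts. The CpG at 23520340 on chromosome 16 was at 0, 0, 77.8 and 100% in knockouts, and the CpG at 23520608 was at 12.8, 51.4, 0 and 15.2%, while both were at 0% in every control. Their depth was low, with 11 to 70 reads a mouse at 23520340 and 37 to 145 at 23520608. RefSeq places these CpGs at the lower end of Rtp4, at 23520219, and inside the upper end of Masp1. The start of Masp1 also lies in or within 1 kb of this window. The lower end of Rtp4 was taken because both ends held equal numbers of listed CpGs. A window nearer its upper end, at 23609001 to 23610000, was at 0.0716% ± 0.113 in knockouts and 0.143% ± 0.179 in controls. Whether the 5 CpGs belong to the start of Rtp4 was not tested.

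**Figure D3:**
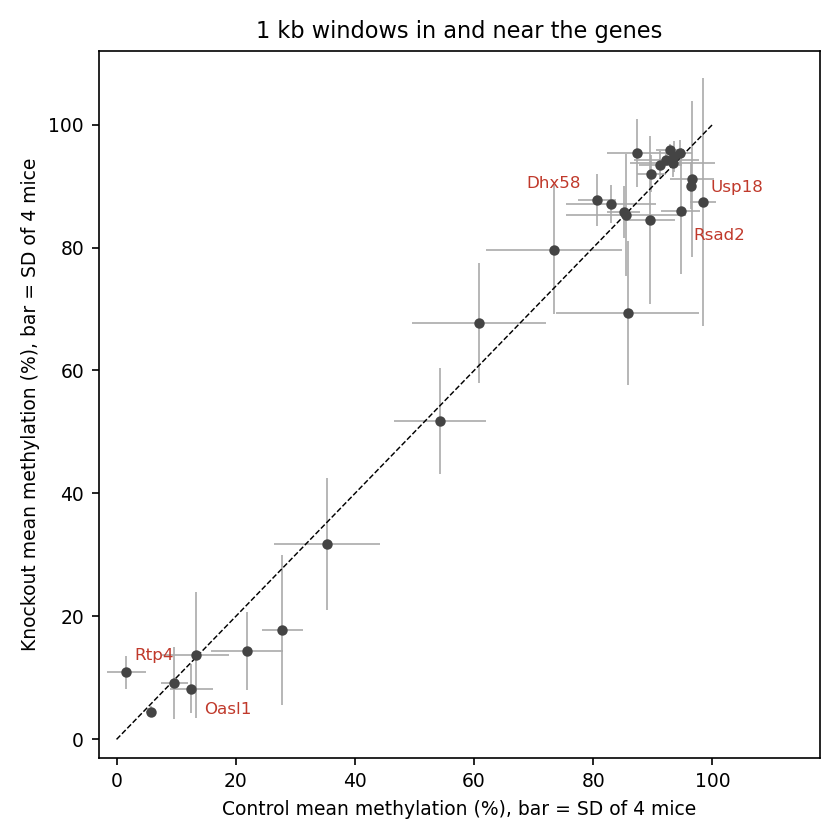
Mean methylation (%) of the 29 tested 1 kb windows in and near the genes, controls on the horizontal and knockouts on the vertical axis, with SD of 4 mice as bars and the line of equality dashed. The windows lie along the line, and the 5 labelled windows have the smallest p without any passing the adjusted threshold.

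Of the windows with the smallest p, that of Dhx58 lay at 100708001 to 100709000 on chromosome 11, inside the neighbouring gene Kat2a and 3730 bp from Dhx58 itself. It was at 83.1, 88.5, 86.2 and 93.1% in knockouts and 84.9, 80.2, 77.1 and 80.5% in controls, over 10 CpGs. The difference was 7.03 percentage points (interval -1.83 to 15.9, adjusted p = 0.723 from the limma-moderated model). By the unweighted mean of CpG levels it was 2.635. One of its CpGs, at 100708562, was at 100% in every knockout and at 85.1, 85.3, 90.3 and 92.0% in controls (adjusted p = 0.739). Rsad2 encodes viperin, which makes a chain-terminating ribonucleotide, and its window at 26451001 to 26452000 on chromosome 12 was at 84.3, 100, 75.4 and 84.2% in knockouts and 98.1, 92.7, 91.2 and 96.7% in controls. The difference was -8.73 percentage points (interval -22.8 to 8.84), and knockout 28 lay above all controls. It was -13.4 without knockout 28 and -5.21 without knockout 45.

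The window of Usp18 at 121268001 to 121269000 on chromosome 6 was at 95.5, 86.5, 89.1 and 89.2% in knockouts and 96.2, 96.2, 96.9 and 96.4% in controls, over 3 CpGs. Every knockout lay below every control, by a difference of -6.36 percentage points (interval -10.3 to -0.701, adjusted p = 0.765 from the limma-moderated model). With Rtp4 this made 2 of 29 windows whose groups did not overlap (6.9%), against 3.48% of all windows. Each direction held 1 of them (3.45%), against 2% of all windows lower and 1.48% higher in knockouts. A CpG in the flank before the gene, at 121243696, lay in the opposite direction, at 97.3, 100, 100 and 100% in knockouts and 57.6, 62.5, 79.1 and 87.7% in controls (adjusted p = 0.748). The groups did not overlap for 5 of 196 CpGs (2.55%), against 3.11% of all. Of these 1 was lower in knockouts (0.51%, against 1.54%) and 4 were higher (2.04%, against 1.57%).

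Of the CpGs with the smallest p, a CpG of Trim25 at 89009652 on chromosome 11 was at 76.1, 100, 72.9 and 70.7% in knockouts and at 100% in controls 1, 36 and 37, with control 34 not covered and left out of the fit (adjusted p = 0.739 from the limma-moderated model). A CpG of Ddx58 at 40227554 on chromosome 4 was at 100% in every knockout and at 100, 51.5, 96.2 and 91.9% in controls (adjusted p = 0.755). The low mean of the controls there came mainly from control 34. Outside the rule, a CpG of Oas3 at 120777600 on chromosome 5, close to the start, was at 100% in knockout 28, at 0% in knockouts 25 and 46 and at most 2.53% in controls, with knockout 45 not covered.

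**Figure D4:**
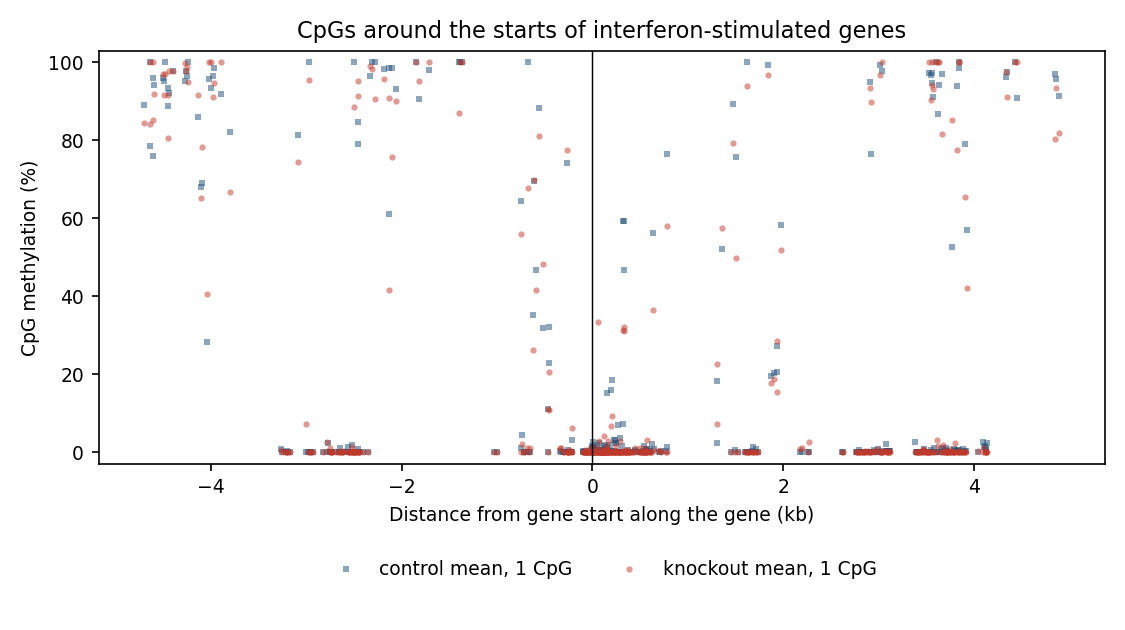
Methylation (%) of single kept CpGs against their distance from the gene start (kb, along the gene), for the 29 genes with a start in the promoter table. Circles are knockout means and squares control means; most CpGs within 0.5 kb lie near 0 in both groups, and the squares near 60% just after the start are CpGs of Oasl1.

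By distance from the start, the 121 CpGs within 250 bp and covered in all 8 mice were at 0.348% ± 0.114 in knockouts and 0.743% ± 0.336 in controls. Over all genes the same distance was at 1.37% ± 0.0303 and 1.36% ± 0.0685. From 251 to 500 bp the 50 CpGs were at 4.49% ± 0.789 in knockouts and 6.60% ± 0.332 in controls, with groups that did not overlap and with no test. In that bin the 3 CpGs of Oasl1 were at 31.5% and 55.2%, and no other gene with CpGs there differed by more than 4.75 points. All genes were at 1.82% and 1.81% in that bin. At 501 to 1000 bp the levels were 11.9% ± 1.61 and 13.4% ± 1.33, and those of all genes 4.53% and 4.52%. At 1001 to 2000 bp they were 29.8% ± 3.51 and 31.5% ± 1.76, against 16.3% and 16.4% for all genes. At 2001 to 5000 bp they were 23.6% ± 0.824 and 23.7% ± 0.475, against 32.9% and 32.9%. Of the 212 CpGs in that last bin, 153 were those of the Isg15 flanks, at 0.225% and 0.279%. Its level thus mostly reflects those flanks, and not the genes in general.

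Sums of reads over whole genes could differ from the mean over the same CpGs. Tlr3 with its flanks was at 35.7, 17.3, 18.5 and 44.6% of reads in knockouts and 47.7, 48.5, 53.9 and 64.7% in controls, a difference of -24.6 percentage points, and was the single gene of 21 whose groups did not overlap (4.76%, against 1.71% in either direction, 1.27% lower and 0.444% higher) and that had an unadjusted p under 0.05. As a mean over the same 10 CpGs it was at 20.1% ± 0.818 and 18.8% ± 0.909, so the difference was 1.29 points in the opposite direction. Its CpGs were near 0 at the start and near 100% further inside the gene. The start had 291 to 1127 reads a mouse, and the gene with its flanks 865 to 1796. Whether the share of reads from each accounts for the difference between groups was not tested. By reads, 16 of 21 genes were lower in knockouts (76.2%, against 72.6% of all 11041), and by the unweighted mean of CpG levels 13 were, against 52.7% of all.

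Mx1 encodes a GTPase that blocks virus replication, and its promoter drives the Cre of the knockouts. RefSeq lists Mx1, Mx2 and Oas1b as transcribed pseudogenes in this assembly. Of 30 Mx1 CpGs listed for any mouse, 8 lay within 1 kb of its upper end, and no CpG was listed for more than 4 mice. The mice had 6, 10, 1 and 7 of them in knockouts and 3, 6, 7 and 2 in controls, so neither a level nor a relative coverage that could reveal transgene copies was computed. Mx2 had 4 kept CpGs, all in its flanks, and was at 89.0% ± 6.20 and 86.5% ± 4.54 over 2 CpGs.

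Other genes of the response were counted from 2 lists. Of 22 genes for receptors, kinases, adaptors and transcription factors, 20 had a measured start, 18 of them were under 5%, and 0 of the 2 tested passed. Those were Mavs, the mitochondrial adaptor of the RNA sensors, at 25.04% ± 6.13 in knockouts and 31.5% ± 7.57 in controls, and Sting1, the adaptor of the DNA sensor, at 58.5% ± 10.4 and 54.2% ± 12.2. The start of Irf9 was at 1.16% ± 0.989 and 1.18% ± 1.20, and that of the receptor chain Ifnar1 at 0.126% ± 0.0749 and 0.204% ± 0.0926. Of 27 further induced genes, 9 had a measured start, 7 were under 5% and 0 of 2 tested passed, namely Igtp at 72.1% ± 10.7 and 78.0% ± 19.8 and Slfn8 at 11.6% ± 7.90 and 18.2% ± 9.55.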

How the data were processed

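Per the labels' protocols, DNA of sorted stem cells went into reduced representation libraries with a size selection changed for low input. The submitters' processing notes name Bismark, CASAVA 1.8.2 and genome build mm10. How reads were filtered or duplicates handled is not given here. The deposited tables, 1 for each mouse, give for each cytosine the authors' read count (coverage, at least 10) and, per the file headers, the percent of reads with C and with T.

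Methylated and unmethylated reads were recovered as coverage times percent, rounded, and both strands of a CpG were added. Single CpGs needed 10 reads in at least 3 mice of each group. Windows of 1 kb, gene starts (1 kb to each side) and genes with 5 kb flanks were sums over at least 3 CpGs with 10 reads in all 8 mice. Features with a mean level from 5 to 95% on chromosomes 1 to 19 were tested with a logistic model on genotype, with overdispersion moderated by squeezeVar of limma 3.58.1 (R 4.3.3) and not under 1, and Benjamini-Hochberg adjustment over all features of a kind. The model was tested on simulated data. edgeR 4.0.16 on the counts, limma on log2 ratios (1 read added), other coverage limits, feature definitions and left-out mice were alternatives. A planned test of coverage at the Mx1 start could not be run.

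Values per mouse were given for the 6 genes with the smallest p over windows, the 4 with the smallest over CpGs, the starts between 5 and 95%, the 3 lowest, 3 highest and 3 most variable starts, and Mx1. The members and lists were chosen with earlier results of these data known. No molecular identifiers are described, so limits for 0 reads (3 counts) cover counting error only. Each library is labelled with its own mouse number. The p-values of the model rest on the spread between the 4 mice of a group, moderated over all features of a kind. The same reads can thus have a different p as a start and as a window.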

Additional observations from a re-analysis of the deposited data

Results flagged for a closer look

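In 10 of 51 groups of 4 mice examined, 1 mouse stood far from the other 3 relative to the range of the group, which chance alone gives in about 1 in 20 groups. Several of these groups hold values near 0, share CpGs or are the same reads counted as a start and as a window. In knockout 28 the start of Oas1c, and that of Oas1b over the same CpGs, had 0.3268% methylated reads and the other knockouts 0%. Knockout 28 also had 1.389% at the Tlr3 start, where the other knockouts had 0 to 0.1289%, and 1.083% at the Irgm1 start, where they had 0 to 0.08721%. Control 1 had 0.2012% at the Tlr3 start, with the other controls at 0%, and 3.277% at the Stat2 start, with the others at 0.1498 to 0.5408%. Control 34 had 6.618% at the Rtp4 start and in the Rtp4 window, which hold the same 5 CpGs, with the other controls at 0%. At the Usp18 CpG knockout 25 was at 97.3% and the other knockouts at 100%. At the Ddx58 CpG control 34 was at 51.52% and the other controls between 91.86 and 100%.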

How the results depend on the processing

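No feature of these genes was called under any of the 15 alternatives for CpGs, 16 for windows, 17 for starts and 17 for genes with flanks, those that leave out a mouse included. The smallest adjusted p over these alternatives was 0.140 for CpGs (all features tested), 0.3998 for windows, 0.343 for starts and 0.108 for genes with flanks (windows, starts and genes each without control 34). Of 255 alternative values for single features, 248 kept their direction and 7 reversed. The Ifitm2 start was higher in knockouts by 1.53 percentage points without knockout 45 and by 0.144 without control 36. The Parp14 start was higher by 1.43 without knockout 45, 0.294 without knockout 46, 0.208 without control 1, 0.515 without control 36 and 0.212 with the unweighted mean of CpG levels, an alternative chosen after seeing the data. Leaving out 1 mouse at a time, the Ifitm2 difference ranged from -5.30 to 1.53 and the Parp14 difference from -1.62 to 1.43. The cause was not tested. No paired analysis was possible because the groups share no replicate numbers. Few members could be tested: 18 of 39 genes had no kept CpG within 1 kb of the start, and only 6 starts were tested.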
